A study of Saccharomyces cerevisiae with 24 samples.

Results

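Internal hotspots of Hel2-bound ribosome footprints were codons inside yeast coding sequences at which footprints recovered with the ubiquitin ligase Hel2 piled up in the cytosol. A codon's occupancy is its RPM (reads scaled to 1e6 per library) divided by the mean coding RPM of its transcript in the same library, so that 1 is the average of that transcript. A codon was taken when its occupancy was at least 5 in both cytosolic Hel2 immunoprecipitates (IPs), from codon 20 after the start to 31 codons before the stop, in transcripts with at least 50 RPM over the coding sequence in each of these IPs. Adjacent codons were merged, and a hotspot is described at its peak codon, the one with the highest mean occupancy of the 2 cytosolic IPs. The rule found 1489 hotspots, made of 11084 codons in 669 transcripts. They came from 1372488 codons of 2160 transcripts that could have passed, among 3556098 codons of 6663 transcripts in the files.

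Hel2, of budding yeast (Saccharomyces cerevisiae), recognises ribosomes that have run into each other on a message and ubiquitinates them, which starts ribosome quality control and the clearance of the arrested chain. Proteins of the secretory pathway and of membranes are handed over while still being made: the signal recognition particle (SRP) binds their first hydrophobic stretch and brings the ribosome to the endoplasmic reticulum (ER). On a message of this kind, early codons can thus be read in the cytosol before the ribosome is brought to the membrane.

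The 8 libraries used here all came from 1 strain, HEL2-FTP, in which Hel2 carries an FTP tag. Per the labels it was MATa with ade2, his3, leu2, trp1, ura3 and can1 mutations and HEL2-FTP::natNT2, grown in YPD medium at 30 °C to an OD600 of 0.5 to 0.6. The lysate was separated into a cytosolic fraction and a membrane fraction solubilised with 1% Triton X-100, footprints were made with RNase I, and from each fraction both the input, meaning all its footprints, and the Hel2 IP were sequenced. Each of the 4 groups had 2 replicates; the labels do not say that these were separate cultures, so p-values measure only the spread between these samples, which may be technical. Every group carried the tagged Hel2, and no library of an untagged strain was used here, so footprints that stick to the beads without Hel2 were not measured.

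The worth of 1 read lay between 0.0257 and 0.0452 RPM, which puts the depth of a library at 22.1 to 38.9 in units of 1e6 reads. Over the peak codon lay a median of about 326 and 240 reads in the cytosolic IPs and 223 and 251 in the membrane IPs, against 32.1 and 26.7 in the cytosolic inputs and 37.4 and 30.4 in the membrane inputs. The input value of a single hotspot is thus the least certain. Across the codons that could have passed, the replicates correlated with Pearson's r of 0.934 and 0.921 in the cytosolic and membrane IPs and 0.753 and 0.747 in the cytosolic and membrane inputs, a description over codons that share reads.

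For 353 of the 1489 hotspots, a codon elsewhere had RPM within 5% of the peak in all 8 libraries. It lay in another transcript or far along the same one. These hotspots are called shared peaks below, but whether their reads map to more than 1 place was not tested. Of these, 297 lay in 80 open reading frames of 404 to 1794 codons that have no gene name, and 216 of them in 37 frames of over 1700 codons. Another 25 were matched only within their own gene. They were 15 hotspots between codons 629 and 1291 of NUM1, which anchors dynein and mitochondria at the cell cortex, 8 between codons 491 and 743 of the mucin-like HKR1, and codons 438 and 528 of the flocculin FLO5. At such peaks the place of origin of a footprint is uncertain. The other 1136 hotspots, in 573 transcripts, are called unique hotspots below.

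Among the 12 hotspots with the highest cytosolic IP occupancy, 10 were shared peaks, each in another long frame without a gene name. The highest of these, in YER138C, had occupancies of 40.4 and 35.7 in the cytosolic IPs, 30.3 and 29.2 in the membrane IPs, 29.4 and 23.4 in the cytosolic inputs and 24.9 and 25.2 in the membrane inputs. Of the shared peaks, 26 frames had one at codon 548, 20 at codon 363 and 17 at codon 434. Frames of 441 codons that share the start with a frame of 1756 codons end at codon 440, just behind the last of these positions. The 10 shared peaks among the 12 were high in every library, and the inputs reached most of the IP level. The other 2 of the 12 were in HEF3 and RGR1, and both were unique by the rule on equal values.

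**Figure D1:**
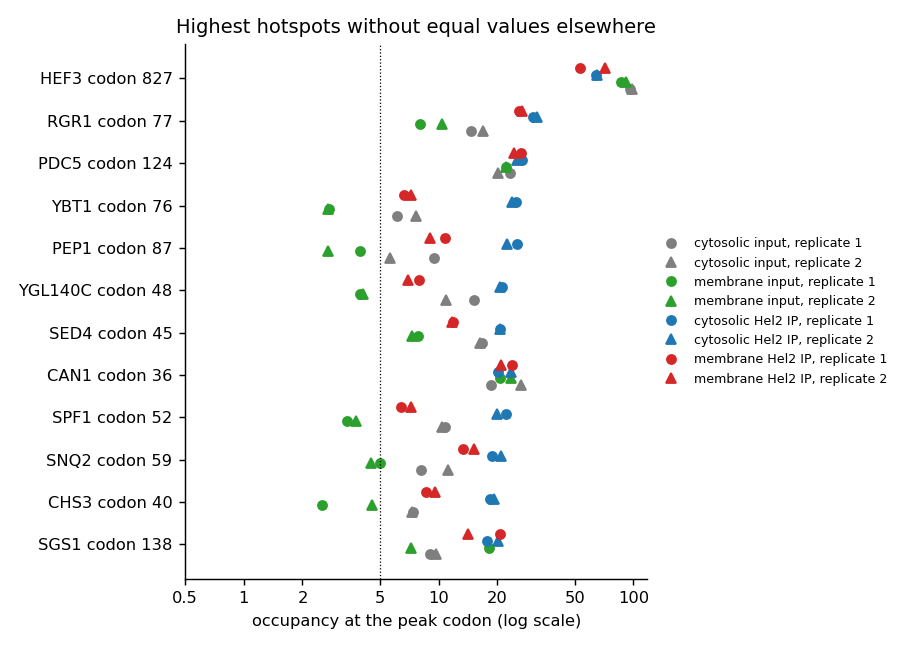
Occupancy at the peak codon, on a log axis, of the 12 unique hotspots with the highest cytosolic IP occupancy, in each of the 8 HEL2-FTP libraries (circles replicate 1, triangles replicate 2). The dotted line marks 5 times the transcript mean; the cytosolic IPs lie above it by the rule, and the membrane inputs of YBT1, PEP1, YGL140C, SPF1 and CHS3 lie below it.

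HEF3 codon 827 gave the largest value of all and is uncertain. HEF3 (chromosome XIV, 608779 to 608817 for the merged region, build sacCer3) encodes a translation elongation factor eEF3 of the same family as YEF3. Its occupancy was 64.2 and 65.0 in the cytosolic IPs, 53.4 and 71.3 in the membrane IPs, 95.8 and 98.0 in the cytosolic inputs and 86.8 and 91.4 in the membrane inputs. The inputs were above the IPs. The same codon of YEF3 held 7.41 to 9.34 RPM and that of HEF3 4.77 to 6.90 RPM, while HEF3 codons 780 to 810 averaged at most 0.0129 RPM. Codon 827 was not the only loaded place in HEF3. Its codon 861 held 3.87 and 3.48 RPM in the cytosolic IPs and 4.67 and 2.95 in the membrane IPs. There the inputs were lower, with 0.924 and 0.544 RPM in the cytosolic and 1.25 and 1.08 in the membrane inputs. PDC5 codon 124 lies in a pyruvate decarboxylase with the close paralogue PDC1, and the sharing of reads between the 2 genes was not tested here. Its occupancy ran from 24.4 to 26.7 in the IPs and from 20.1 to 23.1 in the inputs, so the IPs lay above the inputs by a narrow gap.

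The remaining high hotspots lay near the start of long genes, and most of these encode membrane proteins. RGR1 codon 77 (chromosome XII, 278369 to 278419), in a subunit of the Mediator complex of transcription, had occupancies of 30.4 and 32.1 in the cytosolic IPs, 25.9 and 26.8 in the membrane IPs, 14.6 and 16.9 in the cytosolic inputs and 7.97 and 10.4 in the membrane inputs. Here both IPs of each fraction lay above both inputs. YBT1 codon 76 (chromosome XII, 46011 to 46070), in a vacuolar ABC transporter, had 24.8 and 23.7 in the cytosolic IPs, 6.64 and 7.17 in the membrane IPs, 6.10 and 7.61 in the cytosolic inputs and 2.75 and 2.70 in the membrane inputs. The cytosolic IPs stood clear of all other libraries, and the membrane inputs were the lowest. PEP1 codon 87 (chromosome II, 191278 to 191349), in the sorting receptor for vacuolar hydrolases, had 25.1 and 22.5 in the cytosolic IPs, 10.8 and 9.02 in the membrane IPs, 9.45 and 5.61 in the cytosolic inputs and 3.96 and 2.72 in the membrane inputs. Its membrane IPs overlapped the cytosolic inputs.

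SPF1 codon 52 (chromosome V, 90390 to 90440), in a P5-type ATPase of the ER, had 22.2 and 19.9 in the cytosolic IPs, 6.39 and 7.21 in the membrane IPs, 10.8 and 10.4 in the cytosolic inputs and 3.40 and 3.78 in the membrane inputs. The 4 groups did not overlap, and the cytosolic inputs lay above the membrane IPs. SNQ2 codon 59 (chromosome IV, 466075 to 466134), in a multidrug ABC transporter of the plasma membrane, had 18.9 and 20.8 in the cytosolic IPs, 13.3 and 15.2 in the membrane IPs, 8.15 and 11.2 in the cytosolic inputs and 5.00 and 4.52 in the membrane inputs. Here the membrane IPs came second. SED4 codon 45 (chromosome III, 236167 to 236196), in an ER membrane protein of vesicle budding, had 20.6 and 20.8, 11.9 and 11.6, 16.6 and 16.3, and 7.81 and 7.34 in the same order of groups. The cytosolic inputs again lay above the membrane IPs. CHS3 codon 40, in the chitin synthase of the bud neck and wall, had 18.3 and 19.3 in the cytosolic IPs and 2.52 and 4.53 in the membrane inputs. YGL140C codon 48, in a gene without a name, had 21.2 and 20.7 in the cytosolic IPs and 3.97 and 4.09 in the membrane inputs.

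SGS1 codon 138 (chromosome XIII, 644827 to 644868), in the RecQ DNA helicase, differed from these, with 17.8 and 20.2 in the cytosolic IPs, 20.6 and 14.1 in the membrane IPs, 9.05 and 9.73 in the cytosolic inputs and 18.1 and 7.24 in the membrane inputs. Its membrane inputs spanned from below the cytosolic inputs to the level of the IPs. Just inside the threshold, with no test, stood RDS1 codon 118 at 5.41 and 5.00 in the cytosolic IPs, UME6 codon 229 at 5.00 and 6.71, and MLP1 codon 775 at 5.00 and 5.63. Just outside it stood CHS1 codon 136 at 5.46 and 5.00, PPZ2 codon 108 at 6.22 and 5.00, and codon 44 of the unnamed frame YHR214C-B at 5.00 and 6.66, each with 1 value a little under 5.

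The unique hotspots were about as wide as a footprint and crowded into the first part of the coding sequence. Their median width was 7 codons, with a highest value of 45, and 146 of 1136 were 10 codons wide, the number of codons over which the files spread a read. The median peak codon was 98, against 389 for the codons that could have passed, and 71.3% lay before codon 150 against 19.7% of those codons. Per 1000 codons that could have passed, there were 3.52 hotspots between codons 20 and 59, 2.37 between 100 and 149, 0.601 between 200 and 299 and 0.0284 from codon 1000 on. The density thus fell all along the message. The positions follow from the values that chose the hotspots and are given as a description.

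Transcripts with a unique hotspot were long, with a median of 968 codons against 454 for the transcripts that could have passed and had none. Of transcripts under 300 codons 2.68% held one, of those of 300 to 499 codons 5.77%, of 500 to 999 codons 31.8%, of 1000 to 1499 codons 66.4% and from 1500 codons on 58.4%. Of the 573 transcripts, 291 had 1 hotspot and 39 had 5 or more. Between neighbouring peaks of a transcript, 563 pairs in all, the median distance was 35 codons, and 35 pairs were 8 to 12 codons apart, about 1 footprint.

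PMC1, the vacuolar calcium pump, had the most, with 10 unique hotspots between codons 34 and 224. Its highest, codon 74 (chromosome VII, 486128 to 486160), had occupancies of 15.8 and 16.5 in the cytosolic IPs, 8.03 and 7.99 in the membrane IPs, 13.1 and 10.8 in the cytosolic inputs and 5.63 and 5.08 in the membrane inputs. The order of the groups was that of SPF1 and SED4. MHP1, a microtubule-associated protein, had 9 between codons 39 and 242, with the highest at codon 179, where the cytosolic IPs held 11.9 and 14.0, the membrane IPs 10.8 and 10.3, the cytosolic inputs 5.39 and 8.37 and the membrane inputs 6.67 and 5.79. At this codon the membrane IPs lay a little below the cytosolic ones, and the inputs of both fractions overlapped. MIP1, the mitochondrial DNA polymerase, had 9 between codons 20 and 181, with its highest at codon 121, where the cytosolic IPs held 12.3 and 11.9 and the cytosolic inputs 14.3 and 9.05.

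Most hotspots stood on a raised stretch rather than alone, so the word hotspot applies to the transcript mean more than to the neighbouring codons. Against the mean of the 101 codons around it, the lower of the 2 cytosolic IP values had a median of 2.54-fold over the unique hotspots, and only 20 of 1136 reached 5-fold. A rule with this local mean in place of the transcript mean, added after the values were seen, found 328 hotspots in 94 transcripts with a median codon of 474; 177 of these, 54.0%, overlapped a hotspot of the rule used here, which is 11.9% of the 1489. Most hotspots were thus the highest codons of a stretch with raised occupancy. The 20 that did stand out locally included codon 89 of RPS17B and codon 100 of RPS31, both of ribosomal proteins, and codons of the ribosome assembly factors UTP14, RRP12 and BMS1. UTP14 codon 421 (chromosome XIII, 84341 to 84370) had 9.79 and 14.9 in the cytosolic IPs, 10.7 and 13.4 in the membrane IPs, 8.73 and 13.2 in the cytosolic inputs and 7.28 and 8.55 in the membrane inputs. PRP8 codon 800, in a core factor of the spliceosome, had 16.1 and 14.4, 14.3 and 14.5, 14.1 and 6.69, and 9.69 and 14.2 in that order. At UTP14 the cytosolic inputs overlapped the IPs and the membrane inputs lay below them. At PRP8 every input lay below every IP, the highest of them by little.

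Transcripts found more with membranes carried hotspots more often. A transcript is called membrane-enriched here when its coding RPM was above 2-fold higher in the membrane input than in the cytosolic input in both same-numbered pairs. Of the 669 transcripts with any hotspot 104 were membrane-enriched, and of the 573 with a unique one 100, or 17.5%, against 6.99% of the 2160 that could have passed. They held 306 unique hotspots, and the other transcripts 830. Between codons 20 and 59, there were 17.1 hotspots per 1000 codons in membrane-enriched and 2.50 in other transcripts, and from codon 500 to 999 the densities were 0.0364 and 0.0974. The median peak codon was 79 in the first set and 106.5 in the second. These are descriptions, and the length of the transcripts was not held equal between the sets.

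**Figure D2:**
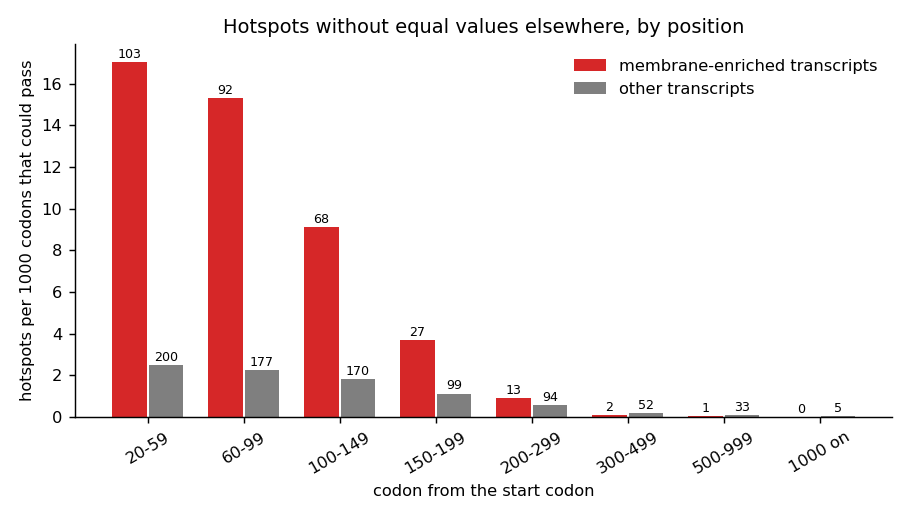
Unique hotspots per 1000 codons that could have passed, by distance of the peak from the start codon, in membrane-enriched (red) and other transcripts (grey); numbers above the bars count hotspots. In membrane-enriched transcripts the bars fall from 17.1 between codons 20 and 59 to 0.908 between 200 and 299.

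The next question was whether the peaks seen in the cytosolic IPs recurred in libraries that had no part in choosing them. Both membrane IPs reached an occupancy of 5 at 1035 of the 1489 hotspots, or 69.5%, while 0.687% of all codons that could have passed did so. Both cytosolic inputs did at 450, or 30.2%, against 0.393%, and both membrane inputs at 381, or 25.6%, against 0.326%; the rule itself took 0.808%. Among the 1136 unique hotspots the counts were 727 (64.0%) for the membrane IPs, 208 (18.3%) for the cytosolic inputs and 115 (10.1%) for the membrane inputs. The membrane IPs alone reached 5 at 533 of them, and 357 reached it in none of the 3 pairs. The recurrence in the inputs was therefore lower once the shared peaks were set aside.

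Over the unique hotspots, the median occupancy was 6.66 and 6.57 in the cytosolic IPs, 5.99 and 5.85 in the membrane IPs, 3.76 and 3.78 in the cytosolic inputs and 3.07 and 3.04 in the membrane inputs. The replicates of a group lay closer together than any pair of groups. Since the rule chose high cytosolic IP values, the cytosolic IP median and its excess over the cytosolic input, a median log2 ratio of 0.89 with 1073 of 1136 above 0, are descriptions without a test.

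Membrane-enriched and other transcripts are described apart, without a test of the difference between them. In membrane-enriched transcripts, both membrane inputs reached 5 at 8 of 306 hotspots, or 2.61%, and both lay under 2 at 127, or 41.5%. Over all codons that could have passed, the upper quartile was 1.33 in each membrane input, so most codons lay under 2 there. Both cytosolic inputs reached 5 at 89 of the 306 hotspots, or 29.1%, and both membrane IPs at 83, or 27.1%. In other transcripts, the shares at 5 were 12.9% for the membrane inputs, 14.3% for the cytosolic inputs and 77.6% for the membrane IPs. At the peak of membrane-enriched transcripts the median occupancy was 7.35 and 7.01 in the cytosolic IPs, 4.83 and 4.57 in the cytosolic inputs, 4.29 and 4.08 in the membrane IPs and 2.07 and 2.03 in the membrane inputs. In other transcripts it was 6.47 and 6.49 in the cytosolic IPs and 6.43 and 6.36 in the membrane IPs, and 3.47 and 3.55 in the cytosolic against 3.39 and 3.45 in the membrane inputs. There the medians of both fractions nearly coincided, and the IPs stood apart from the inputs.

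**Figure D3:**
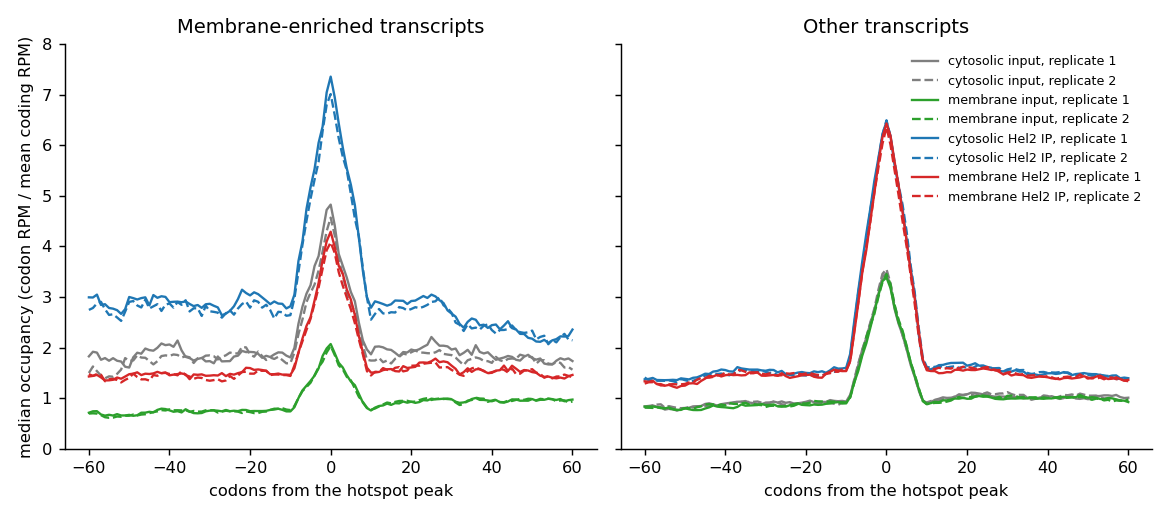
Median occupancy from 60 codons before to 60 codons after the peak of the unique hotspots in membrane-enriched (left, 306 hotspots) and other transcripts (right, 830 hotspots), per library (solid line replicate 1, dashed line replicate 2). On the left, the lines run in the order cytosolic IP, cytosolic input, membrane IP, membrane input; on the right, both IPs coincide above both inputs.

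The surroundings of the peaks showed the same order. At 30 codons before the peak of membrane-enriched transcripts, the median occupancy was 2.87 and 2.72 in the cytosolic IPs, 1.73 and 1.85 in the cytosolic inputs, 1.45 and 1.34 in the membrane IPs and 0.754 and 0.763 in the membrane inputs. In other transcripts it was 1.54 and 1.52 in the cytosolic IPs, 0.912 and 0.904 in the cytosolic inputs, 1.44 and 1.47 in the membrane IPs and 0.865 and 0.826 in the membrane inputs. The peak thus rose over a shoulder that was itself above the transcript mean in the IPs.

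Behind the hotspots, cytosolic footprints thinned out on membrane-enriched messages. The RPM per codon after the hotspot, divided by that up to it, had a median of 0.154 and 0.165 in the cytosolic IPs, 0.321 and 0.368 in the cytosolic inputs, 0.460 and 0.470 in the membrane IPs and 1.10 and 1.08 in the membrane inputs. In other transcripts the medians were 0.379 and 0.383, 0.831 and 0.826, 0.400 and 0.403, and 0.911 and 0.876 in that order. In the first set the medians of the cytosolic inputs lay below those of the membrane inputs by a wider gap than in the second. The cytosolic IP ratios follow in part from the choice of an early peak. To see the slope also where no hotspot was called, the RPM per codon from codon 150 on was divided by that of codons 20 to 149 for each transcript. In the cytosolic inputs its median was 0.310 and 0.354 in 99 membrane-enriched transcripts with a unique hotspot and 0.645 and 0.668 in 42 without; in other transcripts it was 0.815 and 0.807 in 464 with one and 1.09 and 1.08 in 1136 without. In the membrane inputs the corresponding medians were 0.980 and 0.931, 1.17 and 1.21, 0.880 and 0.852, and 1.10 and 1.09.

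The Hel2 IP of the membrane fraction was set against its own input to ask whether Hel2-bound footprints exceeded all footprints at the same codons in a fraction not used by the rule. Transcript-relative occupancies, as log2(occupancy + 0.1), were compared with limma over 1298837 codons of transcripts with a mean of at least 50 RPM in these 4 libraries, which held 1286 of the 1489 hotspots and 940 of the 1136 unique ones. No hotspot passed an adjusted p of 0.05, nor did any codon (0%); the lowest adjusted p of limma with Benjamini-Hochberg adjustment was 0.0505. At an unadjusted p below 0.05, 778 hotspots were higher in the IP and 15 lower, against 12.2% of all codons higher and 14.6% lower. Of the unique hotspots, 707 of 940, or 75.2%, were higher at that level and 0 lower. Before codon 150, 560 of 684 unique hotspots (81.9%) were higher and 0 lower, against 27.1% and 4.49% of all codons tested there. The call depended on the setting. With transcripts of at least 200 RPM in place of 50, 155 of 635 hotspots (24.4%) were called higher and 2 lower, against 3.14% and 3.06% of codons, and 127 of the 155 were unique. Without membrane input replicate 1, 145 of 1286 (11.3%) were called higher and 0 lower, against 1.98% and 0.432% of codons. The hotspots called under both settings numbered 31.

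The differences were of 1 sign at most hotspots. The median log2 difference of membrane IP minus membrane input was 0.80 over the 1286 hotspots and 0.95 over the 940 unique ones, with 910 of these above 0, against -0.04 over all codons tested and 0.27 over codons before 150. Both IPs lay above both inputs at 1006 of the 1286 hotspots and at 850 of the 940 unique ones, or 90.4%, while 26.8% of all codons tested and 49.1% of those before codon 150 did so. Of the unique hotspots before codon 150, 644 of 684 had both IPs above both inputs. Both lay below both inputs at 121 of the 1286, or 9.41%, against 32.2% of all codons. In the 346 tested hotspots with equal values elsewhere the median was 0.15. Membrane-enriched and other transcripts had close medians for their unique hotspots, 0.99 and 0.92.

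Among the highest unique hotspots, the difference was 1.52 with a standard error of 0.38 at RGR1 codon 77 (limma adjusted p = 0.116), 1.31 with 0.13 at YBT1 codon 76 (0.0762), 1.56 with 0.25 at PEP1 codon 87 (0.0816) and 1.56 with 0.21 at SNQ2 codon 59 (0.0771). It was 0.90 with a standard error of 0.16 at SPF1 codon 52 (limma adjusted p = 0.0847) and 0.63 with 0.22 at SED4 codon 45 (0.175). Each of these was positive in both pairs. HEF3 codon 827, with the largest occupancy, was negative in both pairs, at -0.53 with a standard error of 3.00 (limma adjusted p = 0.930). The difference was 0.19 with 0.61 at PDC5 codon 124 (0.867) and 0.57 with 0.59 at SGS1 codon 138 (0.577). It was 0.86 with 0.16 at YGL140C codon 48 (0.0870) and 1.40 with 0.33 at CHS3 codon 40 (0.107). CAN1 codon 36 was not tested, and its pairs had opposite signs. None of the tested ones passed the adjustment.

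The membrane input was then set against the cytosolic input, to ask whether all ribosomes, not only those with Hel2, were spread differently along these messages in the 2 fractions. The inputs had no part in the rule, although the cytosolic IPs came from the same fraction as the cytosolic inputs. Of 908743 codons tested with limma, 0.0812% were called higher in the membrane input and 0.00308% lower, and of 825 tested hotspots 0 were called; the lowest adjusted p at a hotspot was 0.0737. At an unadjusted p below 0.05, 35 hotspots were higher and 186 lower, against 5.77% of codons higher and 4.43% lower. The median log2 difference was -0.10 over these hotspots and -0.25 over 498 unique ones, against 0.02 over all codons. Both membrane inputs lay below both cytosolic inputs at 287 of the 825, or 34.8%, against 18% of all codons, and above both at 138, or 16.7%, against 22.4%. The sign depended on the scale. On RPM, which keeps the level of the transcript in, the median was 0.20 and 144 of the 825 (17.5%) were called higher and 1 lower, against 11.9% and 0.482% of codons. For hotspots at 10 times the transcript mean, the median of the occupancy difference was -0.0096.

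Of the 174 unique hotspots that were lower at an unadjusted p below 0.05, 162 lay in membrane-enriched transcripts. There the median difference of 198 tested unique hotspots was -1.10, with 5 above 0, and both membrane inputs lay below both cytosolic inputs at 184, while 18% of all codons tested did so. Codons before 150 of membrane-enriched transcripts had a median of -0.62, and 65.9% of these codons had both membrane inputs below both cytosolic ones. The 300 tested unique hotspots of other transcripts had a median of -0.01, with 145 above 0. Membrane enrichment was defined on the sum of RPM over the transcript in the same input libraries, and occupancy divides by that sum, so the split by enrichment and this difference are not independent and the values of the split are a description. Over all tested codons of membrane-enriched transcripts the median was 0.28.

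**Figure D4:**
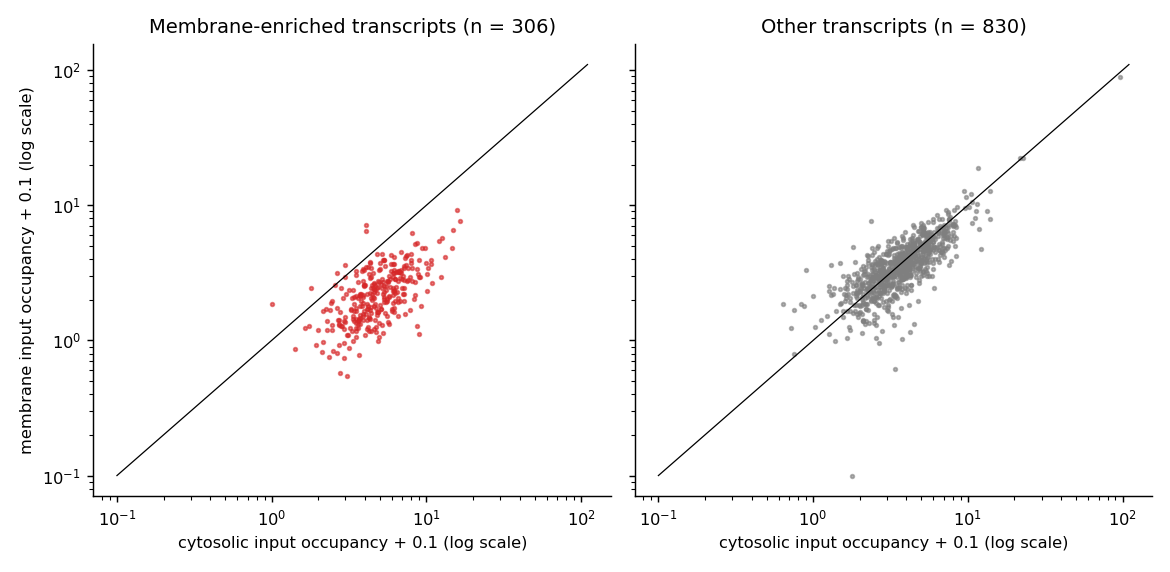
Mean input occupancy at each unique hotspot in the cytosolic (horizontal) and membrane fraction (vertical), both plus 0.1 on log axes, for membrane-enriched (left, n = 306) and other transcripts (right, n = 830); the line marks equal values. The points of membrane-enriched transcripts lie mostly below the line, and those of other transcripts lie along it.

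The hotspots of listed gene groups are given next, beginning with proteins that are inserted into or cross the ER membrane. The lists were chosen with earlier results of these data known, so the counts are descriptions. Of 13 listed plasma membrane transporters that could have passed, 11 held a unique hotspot, with 28 hotspots between codons 22 and 149, while 26.5% of all transcripts that could have passed held one. Both membrane inputs lay below both cytosolic inputs at all 28, and both membrane IPs above both membrane inputs at 26. Of all codons tested, 18% and 26.8% did so. Of codons before 150 in membrane-enriched transcripts, the class that held all 28, the shares were 65.9% and 57.7%. The median log2 difference of membrane minus cytosolic input was -1.23 over 26 tested hotspots and that of membrane IP minus input 1.13 over 28.

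The amino acid permease DIP5, codon 60, had the largest input difference among them, -2.18 on the log2 scale. Its occupancy was 5.08 and 5.44 in the cytosolic IPs, 2.35 and 2.44 in the membrane IPs, 3.57 and 1.73 in the cytosolic inputs and 0.433 and 0.509 in the membrane inputs. The membrane inputs lay under the transcript mean. The phosphate transporter PHO90, codon 120, had the largest membrane IP difference of the group, 2.32, with 7.43 and 8.38 in the membrane IPs, 1.51 and 1.495 in the membrane inputs, 8.94 and 11.0 in the cytosolic IPs and 4.76 and 5.84 in the cytosolic inputs. The proton pump PMA1 had 4 hotspots, and at codon 110 the IPs of both fractions lay below their inputs, with 6.42 and 6.55 against 8.20 and 7.69 in the cytosol and 2.71 and 2.69 against 3.37 and 3.35 at the membrane. The general amino acid permease GAP1, codon 37, had 10.6 and 10.7 in the cytosolic IPs, 5.00 and 4.77 in the membrane IPs, 4.63 and 4.20 in the cytosolic inputs and 1.97 and 2.03 in the membrane inputs. The sugar transporters HXT3 and HXT4, the methionine permease MUP1 and the phosphate transporter PHO84 each had 2 or 3 hotspots, between codons 23 and 92.

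Of 26 listed secretory pathway genes, 7 could have passed and 5 held a unique hotspot, 12 in all. Of all transcripts that could have passed, 26.5% held one. Both membrane inputs lay below both cytosolic inputs at 11, and both membrane IPs above both membrane inputs at 11. As above, 65.9% and 57.7% of codons before 150 in membrane-enriched transcripts did so. KAR2, the ER Hsp70 chaperone, at codon 34 had 5.62 and 5.16 in the cytosolic IPs, 1.71 and 1.33 in the membrane IPs, 3.24 and 2.87 in the cytosolic inputs and 0.863 and 0.681 in the membrane inputs. The groups did not overlap, and the membrane IPs did not come near 5. PMT1, an O-mannosyltransferase, had 5 hotspots between codons 21 and 67, the last with 10.9 and 12.2 in the cytosolic IPs and 2.14 and 2.44 in the membrane inputs. ERO1, the thiol oxidase of the ER, at codon 60 had 9.98 and 8.53 in the cytosolic IPs, 4.99 and 4.33 in the membrane IPs, 8.47 and 7.50 in the cytosolic inputs and 3.00 and 2.35 in the membrane inputs. SEC61, the channel of the translocon, at codon 46 had 5.17 and 5.06, 2.17 and 2.80, 4.61 and 4.04, and 2.22 and 2.68 in that order. At SEC61 the membrane IPs overlapped their inputs.

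Of ribosomal protein genes that could have passed, 4 of 132 (3.03%) held a unique hotspot, against 26.5% of all transcripts that could have passed. It was 2 of 19 genes of glycolysis and fermentation, 1 of 15 translation factors and 1 of 12 cytosolic chaperones. With so few genes in these last groups, no difference is read from them. Of all transcripts under 300 codons that could have passed, 2.68% held one, and length was not held equal between the groups. RPS31 codon 100, in a ubiquitin fusion of the small subunit, had 5.98 and 6.32 in the cytosolic IPs, 6.39 and 6.64 in the membrane IPs, 5.79 and 6.14 in the cytosolic inputs and 5.78 and 5.68 in the membrane inputs. All 8 libraries held the peak. RPS17A and RPS17B, near-identical copies, both had their hotspot at codon 89, and the split of reads between them is uncertain. HSP104, the disaggregase, at codon 42 had 5.14 and 6.01 in the cytosolic IPs, 5.91 and 6.27 in the membrane IPs, 0.984 and 1.06 in the cytosolic inputs and 1.39 and 1.23 in the membrane inputs. Here both IPs lay far above inputs that were near the transcript mean. NEW1, an ATPase of translation related to eEF3, at codon 35 likewise had 6.38 and 6.34, 5.24 and 5.55, 2.03 and 1.97, and 1.798 and 1.81 in that order.

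Of 28 listed genes of amino acid biosynthesis that could have passed, 5 (17.9%) held 8 unique hotspots, while 26.5% of all transcripts that could have passed held one. LYS2, of lysine synthesis, at codon 44 had 6.31 and 8.40 in the cytosolic IPs, 5.95 and 5.91 in the membrane IPs, 1.62 and 2.15 in the cytosolic inputs and 1.65 and 1.33 in the membrane inputs. The IPs stood clear of the inputs, the membrane IPs lay below the cytosolic ones, and the inputs of the fractions overlapped. HIS4, of histidine synthesis, had hotspots at codons 44 and 51, and ILV2, of branched-chain amino acid synthesis, at codon 29.

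Of 9 listed genes known from stalling and ribosome quality control that could have passed, 1 held a hotspot (11.1%), against 26.5% of all transcripts that could have passed; with so few genes, no difference is read from this. RQC2, the factor that extends arrested chains, held it at codon 73 (chromosome XVI), with 5.00 and 5.34 in the cytosolic IPs, 5.70 and 4.86 in the membrane IPs, 2.40 and 2.10 in the cytosolic inputs and 3.27 and 2.26 in the membrane inputs. The IPs did not overlap the inputs. HEL2 itself fell just short, with 5.41 and 4.78 at its codon 217, where the membrane inputs held 4.76 and 6.97. SDD1, a message known to stall ribosomes, had 1.07 and 1.13 RPM over its coding sequence in the cytosolic IPs and so could not be judged by a rule that asks for 50, and HAC1 and JJJ1 lay below that limit too. At the highest codon in the window of the other listed genes, RQC1, RTN1, CDC48, GCN4, CPA1, MAP2 and DBP3, the cytosolic IPs held 2.19 to 4.62. CPA1 was the highest of these, with 4.62 and 4.09 at codon 67, and GCN4 the lowest, with 2.52 and 2.19. LTN1, also on the list, was not among the genes judged.

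The flocculins, wall proteins built of repeats, gave the highest ratios of cytosolic IP to input. FLO5 codon 508 had 17.4 and 16.3 in the cytosolic IPs, 17.3 and 17.4 in the membrane IPs, 1.81 and 0 in the cytosolic inputs and 0 and 4.09 in the membrane inputs. FLO1 codon 1018 had 13.8 and 15.0, 14.9 and 13.1, 0 and 4.53, and 9.55 and 5.45 in that order. The input values rest on almost no reads, because FLO1 held 1.27 to 1.52 RPM in the inputs against 125 to 153 in the IPs. FLO5 codon 508 counted as unique only narrowly. Its RPM equalled that of codon 777 of FLO1 and FLO9 in all 4 inputs. In the cytosolic IPs it held 1.56 and 1.35 RPM, against 1.47 and 1.26 at those codons, so its place of origin is uncertain. Next among unique hotspots came codon 32 of GDB1, the glycogen debranching enzyme, with 7.11 and 8.80 in the cytosolic IPs and 0.284 and 0.794 in the cytosolic inputs, codon 53 of the lipid kinase FAB1, and codon 55 of CMR2. The lowest ratios of unique hotspots were at codon 1526 of ESP1, the separase, with 5.51 and 5.09 in the cytosolic IPs and 15.0 and 11.6 in the cytosolic inputs, then at FRK1 codon 258, PDR15 codon 267, SKN1 codon 29 and HEF3 codon 827. Relative to the transcript mean, a hotspot of the Hel2 IP was thus in some genes a still larger peak of the input. In RPM the cytosolic IPs lay above the cytosolic inputs at ESP1, with 0.364 and 0.325 against 0.166 and 0.120. The same held at FRK1, PDR15 and SKN1, while at HEF3 the 2 groups overlapped.

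**Figure D5:**
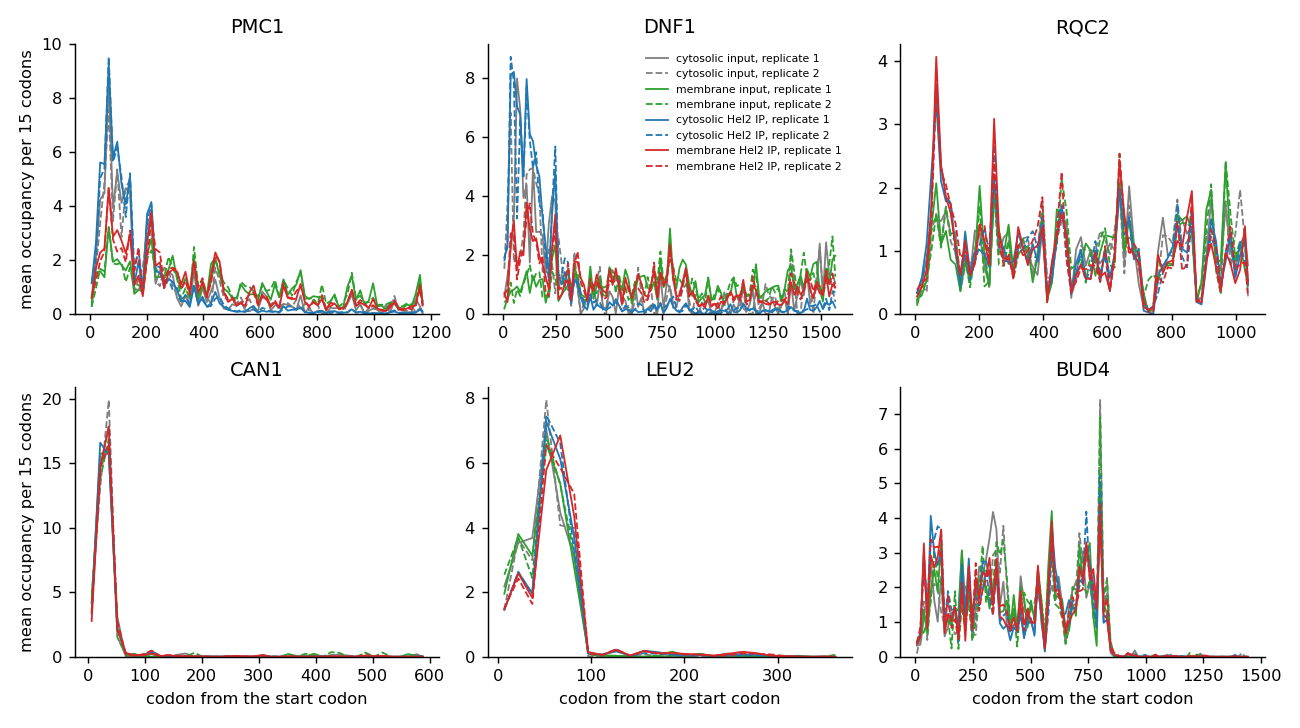
Mean occupancy per 15 codons along 6 genes with a hotspot, in each of the 8 libraries (solid line replicate 1, dashed line replicate 2). PMC1 and DNF1, a lipid flippase of the plasma membrane, are loaded up to about codon 250 in the cytosolic libraries; RQC2 has footprints throughout; in all 8 libraries the mean occupancy stays below 0.5 from codon 60 on in CAN1, from 90 on in LEU2 and from 840 on in BUD4, in each case some way behind the hotspot.

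In a few genes footprints nearly ended in every library at or some way behind the hotspot. At CAN1 codon 36 (chromosome V, 33332 to 33406), in the arginine permease, occupancy was 20.2 and 23.4 in the cytosolic IPs, 23.8 and 20.9 in the membrane IPs, 18.5 and 26.5 in the cytosolic inputs and 20.6 and 23.6 in the membrane inputs. In occupancy the 4 groups overlapped, and the RPM per codon after the hotspot was 0.00081 to 0.00581 of that up to it. Over the coding sequence CAN1 held 104 and 96.3 RPM in the cytosolic IPs, against 6.65 and 4.97 in the cytosolic inputs. In the membrane fraction it held 85.9 and 78.7 RPM in the IPs, against 5.36 and 5.39 in the inputs. At LEU2 codon 57, in leucine synthesis, occupancy was 9.85 to 12.5 in the 8 libraries, and 0.918% to 5.64% of the RPM of the frame lay after its first 100 codons. Both genes are among those the genotype lists as mutant. With a limit of 0.05 on the ratio, chosen after the values were seen, 4 unique hotspots qualified in all 8 libraries. They were CAN1 codon 36, ADH2 codon 135 in an alcohol dehydrogenase, BUD4 codon 803 in a bud site protein, and YBP1 codon 227 in a regulator of the oxidative stress response. In occupancy, the inputs overlapped the IPs at ADH2, BUD4 and CAN1. At YBP1 the IPs held 12.2 to 14.5 and the inputs 4.23 to 5.99. Whether these frames are intact in the strain was not tested here.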

How the data were processed

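Footprints of the HEL2-FTP strain were measured in 8 libraries of the series' 24. Files of the 16 promoter-strain libraries were not used here. The authors deposited RPM per codon and, beside it, a ratio equal to RPM over a single value per transcript, which was only checked. The submitters' processing notes name CASAVA 1.8, UMI-tools, Bowtie2, TopHat and build sacCer3; their roles and order are not given in the sources used here. Symbols and coordinates (R64, genes without introns) came from a RefSeq gene table that matched 5988 of 6663 transcripts. It holds no sequence, and sequence around hotspots was not analysed here. Groups and replicate numbers came from the sample titles.

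Depth was read from isolated runs of low values; 96.7% to 98.7% of them came out as whole reads within 2%. No count test was run, since each read is spread over about 10 codons. Differences were tested with limma 3.58.1 (R 4.3.3; lmFit and eBayes with an intensity trend) on log2(occupancy + 0.1), which understates changes of low codons, with Benjamini-Hochberg adjustment over all codons tested. The script was tested on simulated data. Hotspots were read at the peak codon. Python 3.11.15, pandas 2.3.3 and numpy 2.4.6 did the rest. Neighbouring codons share reads and are not independent. For membrane enrichment 0.5 was added to each transcript's RPM.

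Hotspots, lists and tests were chosen with earlier results of these data known. Named were the 12 hotspots with the highest lower cytosolic IP value, those in the list of stall genes, 3 on each side of the threshold, the 5 highest and 5 lowest cytosolic IP over input ratios, the 3 transcripts with the most, and any called by a test. The same lists over unique hotspots, the hotspots of listed gene groups, the locally prominent ones and those behind which footprints end were added after values were seen, as were 2 alternatives, the local mean and leaving out shared peaks. The other alternatives changed the threshold, the transcript minimum, pseudocounts, the scale, the variance and the replicates.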

Additional observations from a re-analysis of the deposited data

Results flagged for a closer look

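At 2 of the named hotspots the Hel2 IP lay above its input in both pairs of the membrane fraction and below it in both pairs of the cytosolic fraction, and the difference between the fractions was not tested. At PDR15 codon 267, in a multidrug ABC transporter, the mean log2 ratio of IP to input was 0.61 in the membrane and -0.62 in the cytosolic fraction. Its occupancy was 6.79 and 6.93 in the cytosolic IPs, 11.3 and 9.93 in the cytosolic inputs, 5.25 and 6.57 in the membrane IPs and 3.98 and 3.63 in the membrane inputs. At SKN1 codon 29, of glucan synthesis in the cell wall, the ratios were 1.04 and -0.62. Its occupancy was 7.72 and 8.27 in the cytosolic IPs, 11.2 and 13.6 in the cytosolic inputs, 5.598 and 6.12 in the membrane IPs and 2.28 and 3.41 in the membrane inputs. Both were named for a low cytosolic ratio, so the cytosolic side follows from that choice. Over the 1136 unique hotspots, 12 had this pattern and 3 the opposite one.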

How the results depend on the processing

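The number of hotspots was 2736 at 4 times and 225 at 10 times the transcript mean, and 328 with the local mean; with 1 cytosolic IP replicate alone it was 1917 to 1963. At 10 times, both membrane IPs reached 5 at 207 of 225, both cytosolic inputs at 163 and both membrane inputs at 143. Without hotspots with equal values elsewhere, the input counts fell to 208 and 115. With 1 replicate alone the 3 counts were 1113 to 1152, 586 to 589 and 458 to 469, and membrane-enriched hotspot transcripts stayed at 104. In the membrane IP test, calls appeared with a pseudocount of 0.02 (15 higher), with transcripts of at least 200 RPM (155 higher and 2 lower of 635, against 3.14% and 3.06% of codons) and without membrane input replicate 1 (145 higher); leaving out 1 library gave 0 to 145. At the pseudocount of 0.02, the 15 were 1.17% of the hotspots, and 0 were lower, against 0.282% of codons higher and 0.0169% lower. On RPM in place of occupancy, 1211 were higher and 23 lower (94.2% and 1.79%, against 45.0% and 14.0% of codons). The median on RPM was 2.53, with the median of all codons at 0.58. The median was 0.72 at 10 times, 0.95 without equal values, 0.71 with a pseudocount of 0.5, 0.48 from 200 RPM and 0.83 from 1 RPM, and 0.77 to 0.82 without 1 library. Between the inputs, the pseudocount of 0.02 gave 1 lower (0.121%, against 0.0439% of codons). RPM gave 144 higher and 1 lower (17.5% and 0.121%, against 11.9% and 0.482% of codons), with a median of 0.20, the opposite sign. The median was -0.0096 at 10 times, -0.25 without equal values and -0.026 from 200 RPM. Without 1 library it was -0.12 to -0.08. The cause of these shifts was not tested, except that RPM keeps the transcript's level in. With a replicate block both tests still made 0 calls, and the medians stayed 0.80 and -0.10; same-numbered libraries correlated in their deviations at 0.147 (membrane IP and input), 0.0468 (inputs) and 0.234 (cytosolic IP and input). With 2 numbers and no label that ties them, the numbers were not taken to pair libraries. The few reads behind input peaks limit single hotspots.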
